A study of Homo sapiens with 4 samples.

Results

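The high mobility group genes described here are the 10 genes HMGA1, HMGA2, HMGB1, HMGB2, HMGB3, HMGN1, HMGN2, HMGN3, HMGN4 and HMGN5, picked by gene symbol from the 60606 genes of the count table. RNA was measured in DaroR cells, the human LNCaP prostate cancer line made resistant by long growth in darolutamide, an antiandrogen drug. The study states that DaroR cells were kept in medium with 10 μM darolutamide. Cells received control siRNA (siControl, 2 libraries) or a pool of siRNAs against the long non-coding RNA LOC730101 (siLOC730101, 2 libraries), and polyA RNA was sequenced. All 4 libraries come from the same resistant line, so no untreated or sensitive cells stand beside them, and the sample descriptions do not say whether replicates were separate cultures. HMGA1 was chosen with its difference between these same libraries known, so the values of that comparison are given as a description for all 10 genes.

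High mobility group proteins are abundant non-histone proteins of chromatin that change its shape without being transcription factors in the usual sense. HMGA proteins bind the minor groove of AT-rich DNA through AT-hook motifs, are high in embryonic tissue and in many carcinomas, and their mRNAs are known targets of the let-7 microRNAs. HMGB proteins bend DNA with HMG boxes, and HMGB1 also acts outside the cell as an alarm signal. HMGN proteins bind the nucleosome itself and compete with the linker histone H1.

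Because the study asked whether LOC730101 holds back the microRNA miR-1-3p, and because let-7 is the known regulator of the HMGA mRNAs, the seeds of both were looked up in the 3′ UTR of 1 transcript of each gene. The mature sequences (RefSeq, GRCh38.p14) are shown first, with the seed, bases 2 to 8, in capitals. The let-7a-5p shown is that of MIRLET7A1 (chr9:94175962-94175983, plus strand), and the miR-1-3p is that of MIR1-2 (chr18:21829015-21829036, minus strand).
let-7a-5p: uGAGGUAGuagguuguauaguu
miR-1-3p: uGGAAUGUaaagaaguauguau

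Seed matches were searched as CTACCTC (7mer-m8) and TACCTCA (7mer-A1) for let-7 and as ACATTCC and CATTCCA for miR-1-3p, on the transcribed strand only; where both overlap, the match is an 8mer. HMGA1 had 1 let-7 match, a 7mer-m8 at nucleotide 961 of its 1347-nucleotide 3′ UTR, and no miR-1-3p match. HMGA2 had 7 let-7 matches (1 8mer, 3 7mer-m8 and 3 7mer-A1) and 1 miR-1-3p match, and HMGB1 had 1 of each. HMGN1 and HMGN3 had 1 miR-1-3p match each, and HMGB2, HMGB3, HMGN2, HMGN4 and HMGN5 had neither. These are the HMGA1 match, the 8mer of HMGA2 for comparison, and the matches of the expressed members, with the matched letters in capitals.
HMGA1 let-7: tctgttcacaaaCTACCTCtgg
HMGA2 let-7: aacgttcgatttCTACCTCAgca
HMGB1 let-7: tgggtcttcagaTACCTCAaaa
HMGB1 miR-1-3p: gtcatgtacgtgACATTCCAcag
HMGN1 miR-1-3p: ggtgtcagcttaACATTCCAcag
HMGN3 miR-1-3p: agattgattcagCATTCCAtgc

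On GRCh37, the build of the sequence search, the HMGA1 window is chr6:34213609-34213630 (plus strand) and the HMGA2 window chr12:66357081-66357103 (plus strand). The HMGB1 windows are chr13:31030980-31031001 for let-7 and chr13:31031165-31031187 for miR-1-3p, both on the minus strand. The HMGN1 window is chr21:40714753-40714775 and the HMGN3 window chr6:79911160-79911181, also on the minus strand. A let-7 match of either kind was present in 15.8% of 19382 3′ UTRs (CTACCTC in 9.78%, TACCTCA in 10.6%) and in 3 of the 10 members. A miR-1-3p match was present in 20% (ACATTCC in 11.8%, CATTCCA in 14.5%) and in 4 of the 10. A match describes letters and not a working site, 3′ UTRs differ in length, and mature microRNAs were not measured in these polyA libraries.

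**Figure D1:**
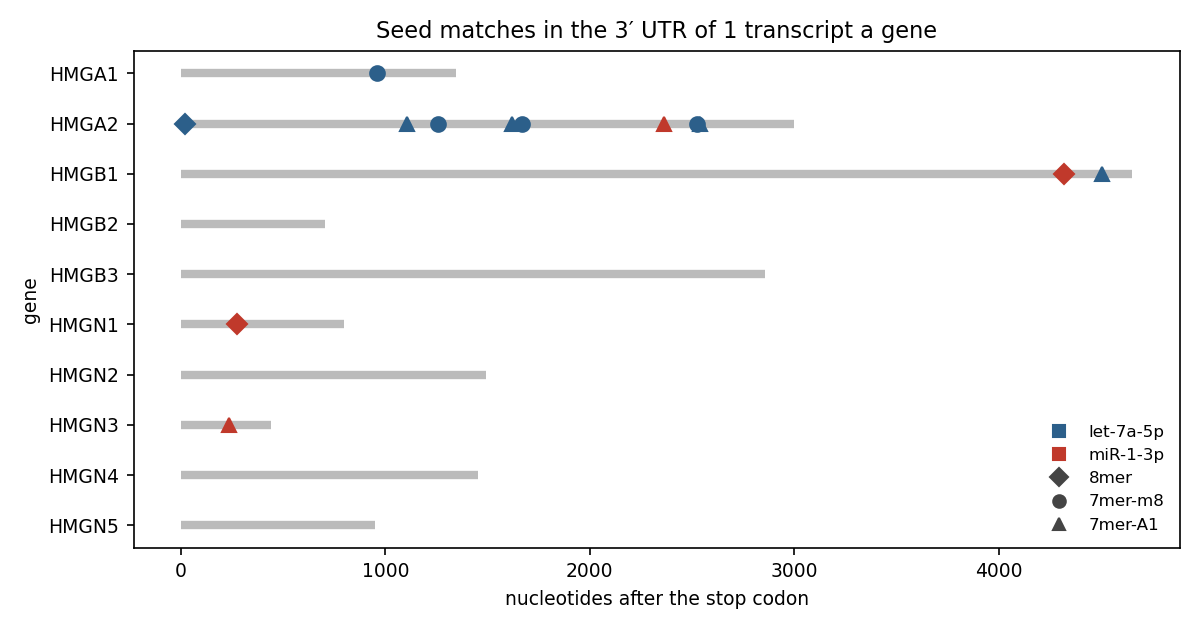
Position of let-7a-5p (blue) and miR-1-3p (red) seed matches along the 3′ UTR (grey bars, nucleotides after the stop codon) of 1 transcript for each of the 10 genes; the marker shape gives the kind of match. HMGA2 holds 7 of the 9 let-7 matches and HMGA1 holds 1, while the 8mers for miR-1-3p are in HMGB1 and HMGN1.

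The library totals were 53368158 and 46271037 counts in siControl and 40885634 and 39213498 in siLOC730101, so both siLOC730101 libraries were the shallower. Between 66% and 70.1% of the counts from 1 to 20 were even; whether the mates of a read pair were counted apart was not tested. LOC730101 (ENSG00000216775 in the table, placed by its position) had 2560 and 2370 counts in siControl and 633 and 680 in siLOC730101, a decrease of 66% in CPM, the counts per 1000000 counts of the scaled library. The cells carried the markers of the line: all 8 prostate luminal genes, among them KLK3, had counts, and their summed CPM was 5770 to 6430 in siControl and 6191 to 6458 in siLOC730101. Of the markers of other cells, PTPRC and CD3E (leukocytes, of 3 genes), COL1A2 (fibroblasts, of 3) and KRT5 (basal epithelium, of 2) were at 0 in every library, and the summed CPM over the 4 libraries was at most 0.02434 for leukocytes, 14.78 for fibroblasts (nearly all COL1A1), 9.443 for endothelium (nearly all VWF) and 0.6322 for basal epithelium.

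Of the 10 genes, 9 had counts and all 9 passed the filter on low counts. In the fit over 19349 genes (edgeR quasi-likelihood, Benjamini-Hochberg), 1 member had an adjusted p under 0.05 and was higher in siLOC730101, where 0.212% of all genes were called higher. This was HMGA1. No member was called lower, where 0.0724% of all genes were; at an unadjusted p under 0.05 the counts were again 1 higher (6.43% of all genes) and 0 lower (4.39%), and with DESeq2 HMGA1 was called too. The groups did not overlap for 3 members that were higher (HMGA1, HMGN1 and HMGN5; 21.3% of all genes) and for none that was lower (20.5%). The median log2 fold change of the 9 members was 0 and that of all genes -0.0021. In a bulk sample, more cells that express a gene and more RNA in each cell cannot be told apart. The smallest two-sided p that an exact permutation of 2 against 2 libraries allows is 0.333, so no such test was run for a single member.

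HMGA1 encodes the AT-hook protein that opens chromatin and serves as a scaffold for transcription factor complexes on enhancers. It lies on chr6:34236873-34246231 (hg38, plus strand; 2327 bases of exon). Its counts were 5752 and 5454 in siControl and 5849 and 6102 in siLOC730101, which is nearly level. The siLOC730101 libraries were smaller, so the normalized values separated: 106.4 and 116.5 CPM in siControl and 142.4 and 160.7 CPM in siLOC730101. Both siLOC730101 libraries were above both siControl libraries, and the gap between the groups (116.5 to 142.4 CPM) was wider than the gap between either pair of replicates. The means were 111.5 ± 7.15 and 151.5 ± 13 CPM (SD, n = 2 each), and the log2 fold change was 0.44 (SE 0.0864, 95% interval 0.26 to 0.63), 36% above siControl, with an adjusted p of 0.0443 in edgeR and 0.000414 in DESeq2.

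This edgeR value was close to the threshold. The adjusted p was 0.0535 with DESeq2 size factors, 0.0546 with upper-quartile factors, 0.0512 when the counts of its pseudogenes were added, and 0.154 without siControl replicate 1. The log2 fold change of HMGA1 itself stayed between 0.351 (without siLOC730101 replicate 2) and 0.537 (without siLOC730101 replicate 1) over all 15 alternatives. Its direction held in each of them, but this is no independent check. The gene was chosen with its difference known, and both siLOC730101 values lay above both controls. Leaving out 1 library could therefore hardly have turned the sign.

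**Figure D2:**
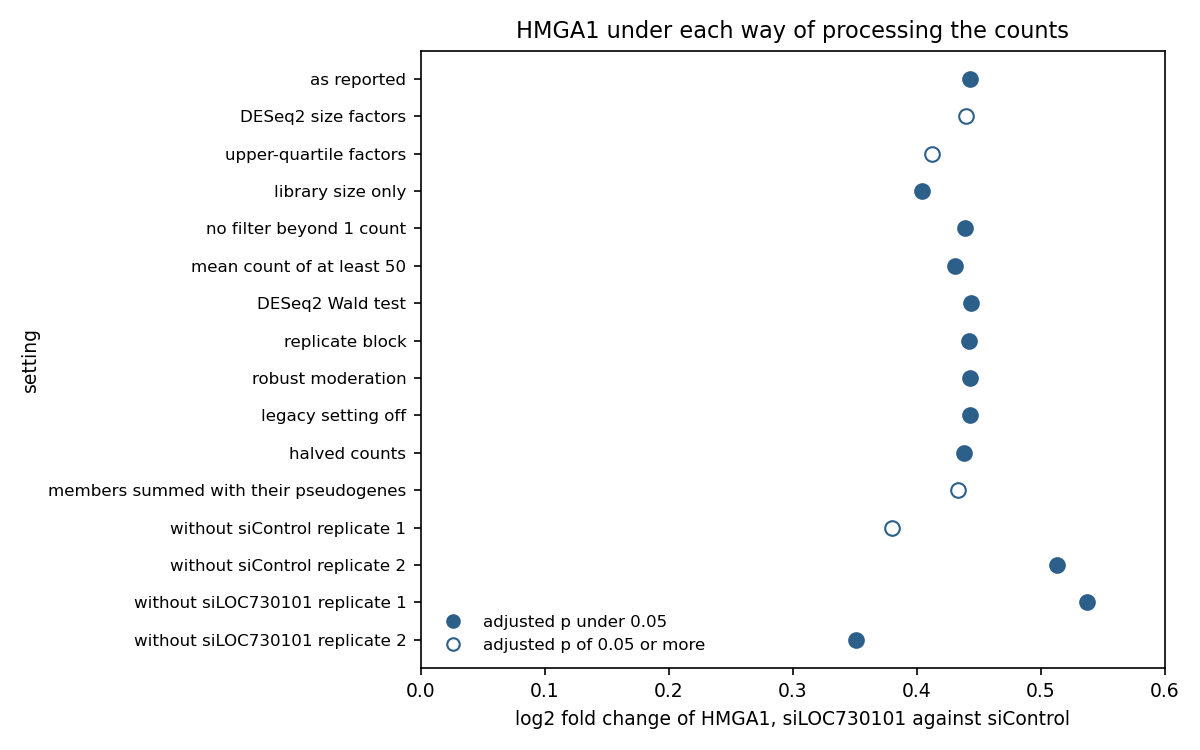
Log2 fold change of HMGA1, siLOC730101 against siControl, as reported and under 15 other ways of processing the counts (edgeR unless DESeq2 Wald is named); filled points have an adjusted p under 0.05 and open points do not. All points lie between 0.351 and 0.537, and 4 of the 15 alternatives are open.

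HMGA2, the second AT-hook gene, is a let-7 target of fetal tissue that many carcinomas express again. It lies on chr12:65824460-65966291 (hg38, plus strand). It had 0 counts in all 4 libraries, which allows at most 3 counts a library, or 0.0555 to 0.07902 CPM. All HMGA counts in these cells therefore came from HMGA1, and HMGA2 could not be compared. Its antisense neighbour HMGA2-AS1, which shares 384 exon bases with it, was at 0 too.

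HMGB1, the member with the highest CPM and the alarm signal of dying cells, lies on chr13:30456704-30617597 (hg38, minus strand). It had 505.1 and 530.3 CPM in siControl and 491.6 and 540.7 CPM in siLOC730101. The siLOC730101 libraries lay on either side of both siControl libraries. The log2 fold change was -0.004 (SE 0.0737), with a 95% interval of -0.161 to 0.153.

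HMGB2, a DNA-bending protein that is high in dividing cells, lies on chr4:173331376-173334432 (hg38, minus strand). Its values were 108.2 and 113 CPM in siControl and 93.51 and 115.2 CPM in siLOC730101. The replicates of siLOC730101 disagreed here more than for any other member, by 0.3 on the log2 scale. The log2 fold change of HMGB2 was -0.084 (95% interval -0.29 to 0.122) and turned to 0.068 without siLOC730101 replicate 1.

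HMGB3, the X-linked HMGB gene (chrX:150980509-150990771, hg38, plus strand), is known from blood stem cells. It had 61.45 and 66.32 CPM in siControl and 57.03 and 64.3 CPM in siLOC730101. The ranges overlapped, and the log2 fold change of -0.075 had an interval of -0.277 to 0.127. The summed CPM of the 3 HMGB genes was 674.7 and 709.6 in siControl and 642.1 and 720.1 in siLOC730101, again with overlapping ranges.

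HMGN1, the nucleosome binding protein encoded on the chromosome that is trisomic in Down syndrome (chr21:39342315-39349647, hg38, minus strand), had 234.9 and 256 CPM in siControl. In siLOC730101 it had 267 and 269.5 CPM. Both values were above both controls, and the siLOC730101 replicates were almost equal. The log2 fold change of HMGN1 was 0.128 (SE 0.0751, 95% interval -0.032 to 0.288; adjusted p = 0.58 in edgeR), so this separation did not pass the test.

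HMGN5, the long acidic member of the group (chrX:81113699-81201913, hg38, minus strand), had 40.44 and 44.82 CPM in siControl and 50.14 and 47.81 CPM in siLOC730101. The groups did not overlap here either. Its log2 fold change of 0.201 (SE 0.0992, 95% interval -0.011 to 0.412) was the second highest of the 9, with an adjusted p of 0.495 in edgeR.

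HMGN2, the closest relative of HMGN1 (chr1:26472440-26476642, hg38, plus strand), had 170.6 and 167.6 CPM in siControl and 152.2 and 168.6 CPM in siLOC730101. Its groups overlapped by a narrow margin, and with DESeq2 size factors, upper-quartile factors or library size alone both siLOC730101 libraries were below both controls. With library size alone HMGB3 separated in the same direction. The log2 fold change of HMGN2 was -0.076 (95% interval -0.244 to 0.091).

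HMGN3, known from endocrine cells and from the eye (chr6:79201245-79234738, hg38, minus strand), had 33.3 and 29.33 CPM in siControl and 31.28 and 36.95 CPM in siLOC730101. HMGN4 (chr6:26538366-26546933, hg38, plus strand), which arose by retroposition of HMGN2, had 55.33 and 48.63 CPM against 54.25 and 49.73 CPM. Both genes overlapped between the groups. The log2 fold change was 0.122 (95% interval -0.129 to 0.374) for HMGN3 and 0 (95% interval -0.213 to 0.213) for HMGN4. The summed CPM of the 5 HMGN genes was 534.6 and 546.4 in siControl and 554.9 and 572.6 in siLOC730101.

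**Figure D3:**
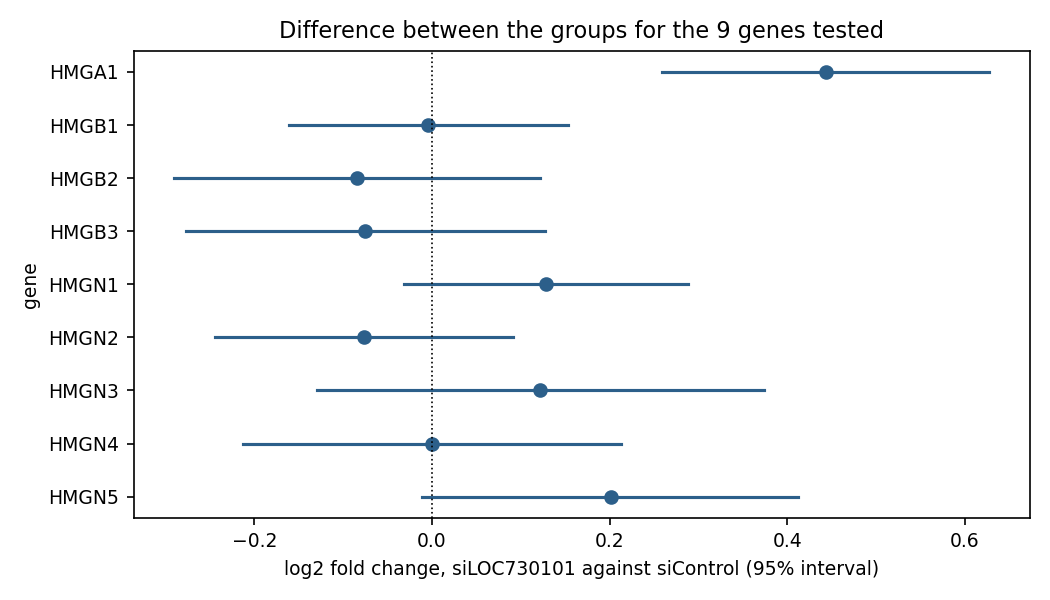
Log2 fold change (points) with its 95% interval (lines) from the edgeR fit, siLOC730101 against siControl, for the 9 members with counts. HMGA1 at 0.44 is the only one whose interval lies off 0, and the other 8 points lie between -0.084 and 0.201.

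For the 8 members other than HMGA1 the adjusted p ranged from 0.495 to 1, and a change of the size of HMGA1's estimate lay outside each of their 95% intervals. The intervals of HMGA1 and HMGN5 overlapped, as did those of HMGA1 with HMGN1 and HMGN3, and the differences between genes were not tested.

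Within a library, counts of 2 genes can be set against each other without any scaling. HMGA1 had 0.2107 and 0.2197 counts per HMGB1 count in siControl and 0.2896 and 0.2973 in siLOC730101. Per HMGB2 count it had 0.9838 and 1.031 in siControl and 1.522 and 1.396 in siLOC730101. Each of the 8 ratios was higher in both siLOC730101 libraries than in both siControl libraries, and the nearest approach was to HMGN5, with 2.631 and 2.6 against 2.839 and 3.362. HMGA1 made up 8.09% and 8.49% of the counts of the 10 genes in siControl and 10.6% and 11.1% in siLOC730101. These ratios all contain the HMGA1 counts by which the gene was chosen, so they describe that choice on another scale.

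**Figure D4:**
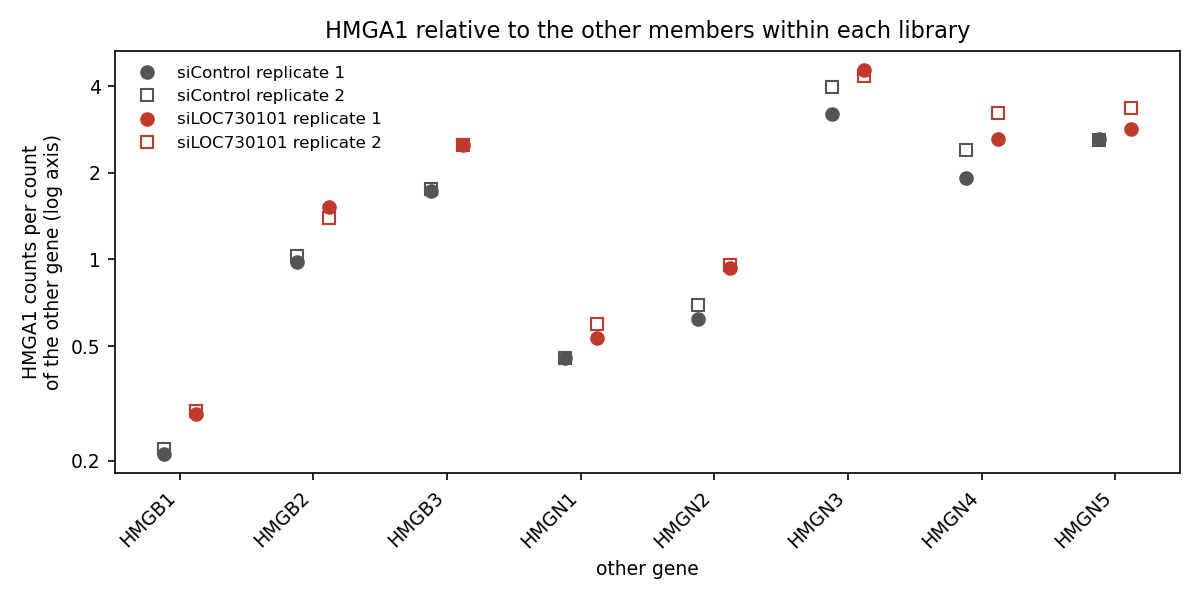
Counts of HMGA1 per count of each of the other 8 expressed members (log axis), by library; grey is siControl and red is siLOC730101, filled circles are replicate 1 and open squares replicate 2. All 8 ratios are higher in both siLOC730101 libraries, from 0.2896 and 0.2973 against 0.2107 and 0.2197 for HMGB1 upwards.

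To compare levels between genes, CPM was divided by the exon length of each gene in kilobases, and all values in this paragraph are such levels, averaged over the 4 libraries unless a group is named. HMGB1 was highest at 67.17 CPM per kb (63.88 to 70.25 over the libraries), followed by HMGA1 at 56.51 (45.73 to 69.07), HMGN2 at 51.66, HMGN1 at 50.94 and HMGB2 at 44.75. The ranges of neighbours in this upper group overlapped, so these ranges alone did not resolve the order of neighbours. The lowest HMGB1 value (63.88) was above the highest of HMGN2 (53.5), HMGN1 (53.45) and HMGB2 (47.96). Within each of the 4 libraries HMGB1 was above HMGA1, narrowly in siLOC730101 (63.88 against 61.18, and 70.25 against 69.07). In siControl alone HMGA1 (45.73 and 50.07) was in place 4, below HMGN2 (53.5 and 52.55) and HMGN1 (46.59 and 50.78), and in siLOC730101 alone it was in place 2. HMGN3 at 32.26, HMGN4 at 26.1 and HMGN5 at 19.17 each lay apart from their upper neighbour, while HMGB3 at 15.91 overlapped with HMGN5. The order depended on the length: the table counts 5042 exon bases for HMGN1, but its canonical transcript has 1271, and with canonical lengths HMGN1 came first at 202.1 CPM per kb and HMGA1 took place 5 at 68.49. HMGN3, HMGN4, HMGN5 and HMGB3 kept places 6 to 9 with either length.

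**Figure D5:**
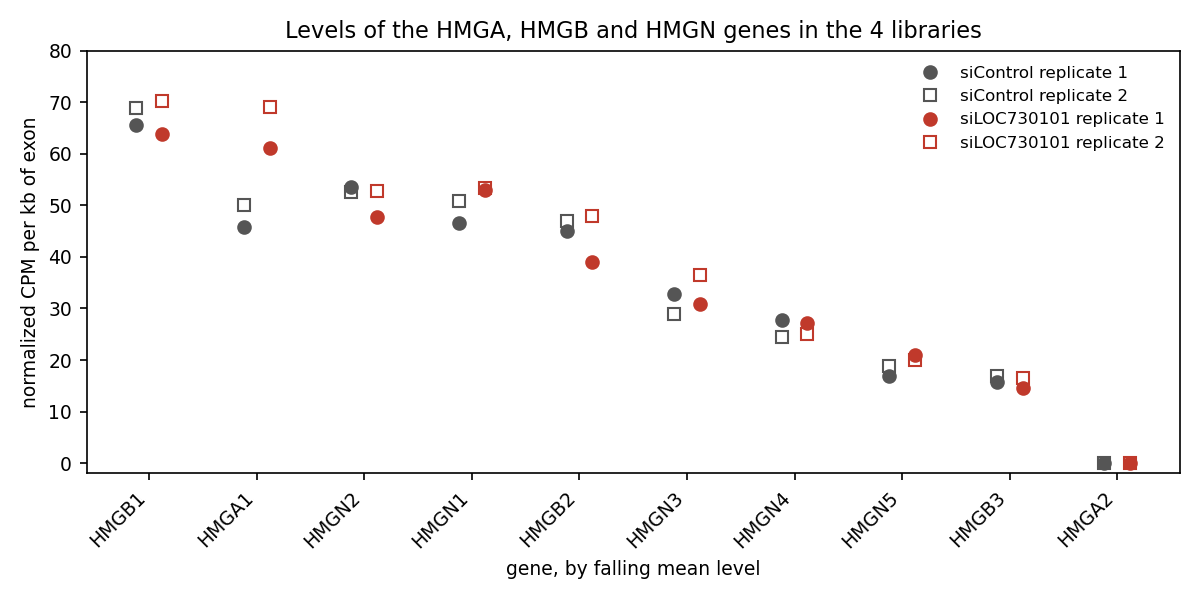
Normalized CPM per kilobase of exon for the 10 genes in the 4 libraries, by falling mean; grey is siControl and red is siLOC730101, filled circles are replicate 1 and open squares replicate 2. HMGB1 is highest (63.88 to 70.25), the siLOC730101 points of HMGA1 lie above its siControl points, and HMGA2 is at 0.

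Members of this family have many processed pseudogenes, whose near-identical sequence can take or lose reads of the parent. The table holds 157 rows named as pseudogenes of the 10 genes, of which 48 had a count and 14 were tested. None had an adjusted p under 0.05 in edgeR or among the 3 that DESeq2 adjusted. Of the 14, 2 were lower at an unadjusted p under 0.05 in edgeR (HMGB1P5 and HMGB1P10), where 4.39% of all genes were. Summed over its rows, the pseudogene counts were 8.35% to 10.4% of the parent's for HMGB1 (48 rows) and 18% to 23.1% for HMGN2 (38 rows). For HMGA1 (8 rows) they were 1.44% and 1.78% in siControl and 0.957% and 0.885% in siLOC730101, so the share on its pseudogenes was smaller where the parent was higher. Nearly all of the HMGN2 sum was 1 row, HMGN2P46 (1594 of 1658 counts in siControl replicate 1). That row spans chr15:45511136-45586290 (hg38) with 3091 exon bases, so it has introns and is not a plain processed copy. Its counts may therefore not be reads of HMGN2. How the reads were divided between parent and copy was not tested.

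Of the 5 pseudogenes with a mean count of at least 50, 4 belong to HMGB1. HMGB1P5 had 730 and 774 counts in siControl and 500 and 390 in siLOC730101 (log2 fold change -0.419, adjusted p = 0.338 in edgeR). HMGB1P10 had 229 and 176 counts against 94 and 101, and HMGB1P14 had 76 and 75 against 28 and 35. All 3 were lower in both siLOC730101 libraries after scaling (20.5% of all genes were), unlike HMGB1 itself, but none passed the test. HMGB1P6 overlapped between the groups and had a log2 fold change of -0.025. HMGN2P46 had 1594 and 1474 counts against 1404 and 1264 and a log2 fold change of 0.146. After scaling HMGN2P46 was higher in both siLOC730101 libraries (21.3% of all genes were). Counting used no strand, and HMGN3 shares 193 of its exon bases (19%) with the antisense HMGN3-AS1, which had 140 to 249 counts, so reads of these 2 genes cannot be fully told apart.

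Related genes were looked at by list, and not all of them are partners of these proteins. Of 25 other HMG-box genes, 24 were tested and none was called; 8 were higher in both siLOC730101 libraries (21.3% of all genes were) and 5 lower (20.5% of all genes). Their median log2 fold change was -0.019, DESeq2 called none of the 20 for which it gave an adjusted p, and an unadjusted p under 0.05 was reached by 2 that were higher (HMG20B and SOX9; 6.43% of all genes) and 2 that were lower (TOX2 and WDHD1; 4.39%), named after their values were seen. The most abundant was PBRM1, a subunit of the PBAF remodeller, at 322.2 ± 5.73 CPM in siControl and 301.7 ± 18.2 CPM in siLOC730101 (SD, n = 2 each). The testis gene HMGB4 had no counts.

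Linker histones compete with HMGN and HMGB proteins for the nucleosome. Of 10 genes, 5 were tested and none was called, with a median log2 fold change of 0.303 over these few, which was 0.097 without siLOC730101 replicate 2. The median is the value of H1-4, a gene of 46 and 2 counts in siControl and 22 and 22 in siLOC730101. H1-10 was named after its values were seen, as the only one with an unadjusted p under 0.05 in edgeR. At that threshold 6.43% of all genes were higher. H1-10 had 131.5 and 147.4 CPM in siControl and 153.9 and 196 CPM in siLOC730101 (adjusted p = 0.207 in edgeR). DESeq2 called none of the 3 linker histones for which it gave an adjusted p. Without siLOC730101 replicate 1, 3 of the 5 were called higher, and calls over all genes rose from 41 to 923 higher in that setting. Replication-dependent histone mRNAs lack a polyA tail and are caught poorly in such libraries, whereas that of H1-10 carries one.

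Among 8 receptors and partners of extracellular HMGB1, 5 were tested and none was called by edgeR (0 at an unadjusted p under 0.05), nor was the 1 gene for which DESeq2 gave an adjusted p. CD24, which binds HMGB1 together with SIGLEC10, was the only one above 2 CPM, at 71.39 ± 1.98 in siControl and 76.96 ± 1.18 in siLOC730101 (SD, n = 2 each). HAVCR2 and THBD were at 0. Of the 5 genes of the SET complex, in which HMGB2 takes part, 4 were tested and none was called. SET was the most abundant at 505.2 ± 22.4 and 522.2 ± 13 CPM. NME1 was named after its values were seen, as the only one of the list with an unadjusted p under 0.05 in edgeR. At that threshold 6.43% of all genes were higher. NME1 had 41.79 and 33.93 CPM in siControl and 50.5 and 65.09 CPM in siLOC730101 (log2 fold change 0.609, adjusted p = 0.0641 in edgeR). DESeq2 called NME1 higher, among 233 genes that it called higher.

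Of 12 genes of let-7 control and other let-7 targets, 7 were tested and none was called by edgeR, with 0 at an unadjusted p under 0.05 and a median log2 fold change of 0. DESeq2 gave an adjusted p for 5 of them and called none. DICER1, which cuts microRNA precursors, was the most abundant at 158 ± 8.86 CPM in siControl and 162.4 ± 22.3 CPM in siLOC730101. LIN28B, which blocks let-7 maturation, was at 0, and LIN28A had 8 counts in 1 siControl library and 0 in the others. The direction of this list turned on single libraries: 6 of the 7 genes were below 0 without siLOC730101 replicate 1, and 0 of the 7 without siLOC730101 replicate 2.

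HMGA1 and HMGB2 are often read beside proliferation, and 15 proliferation markers were all tested. None was called in edgeR (4 were lower at an unadjusted p under 0.05, as were 4.39% of all genes: MKI67, TOP2A, MCM5 and CCNB1, named after their values were seen; DESeq2 called MKI67 lower), all 15 had a log2 fold change below 0 (50.4% of all genes did), and 13 were lower in both siLOC730101 libraries (20.5% of all genes were). Their median log2 fold change was -0.161, and their summed CPM was 1368 to 1408 in siControl and 1232 to 1249 in siLOC730101. The most abundant, CDK1, the kinase of mitotic entry, had 192.1 ± 8.97 CPM in siControl and 175.7 ± 1.53 CPM in siLOC730101 (adjusted p = 0.58 in edgeR). HMGA1 thus stood on the other side of 0 from these markers, while the side of HMGB2 was not settled (-0.084, and 0.068 without siLOC730101 replicate 1). In that last setting 13 of the 15 markers were below 0 and MKI67 and TOP2A were called lower, and calls over all genes rose from 14 to 272 lower. The part of proliferation in the values of HMGA1 and HMGB2 was not tested.

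The genes whose profile over the 4 libraries was most like that of HMGA1 were found by the Euclidean distance between log2 CPM values centred on each gene's mean, among 14255 genes with a mean count of at least 50. They were RPS15, a protein of the small ribosomal subunit (distance 0.0113), NRXN2, a synaptic adhesion protein (0.0282), COPRS, a partner of the methyltransferase PRMT5 (0.0345), DUSP5, a phosphatase of ERK (0.0346), and FBXO6, an F-box protein (0.0416). RPS15 had 818.3 and 889.3 CPM in siControl and 1097 and 1238 CPM in siLOC730101. Over only 4 libraries many genes share such a profile, and the likeness is a description.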

How the data were processed

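Reads of 4 polyA libraries were trimmed with Trim-galore, aligned and counted by the authors with featureCounts, and the deposited values are raw counts per gene. The file header names featureCounts 2.0.1, hg38 and gencode 41, and gene coordinates follow the header. The study's methods name STAR and hg19, while the submitters' processing notes list BWA, so the aligner behind these counts is not settled. The header's command sets no option for read pairs or for strand.

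The test was that of edgeR 4.0.16 in R 4.3.3 (filterByExpr, TMM, quasi-likelihood test, condition as the only term; 19349 genes) and, as an alternative, DESeq2 1.42.0. CPM values are TMM-scaled, and standard errors come from the coefficient and its F statistic. P-values measure the spread between these libraries, which may be technical. Neither pair of replicates held the same counts (chi-square per degree of freedom 10.62 and 12.97). The common biological coefficient of variation was 0.147. Limits for counts of 0 cover counting error only.

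The members and gene lists were chosen with earlier results of these data known. Genes named are the 10 members, the most abundant gene of each list and any with an adjusted p under 0.05, pseudogene or antisense rows with a mean count of at least 50, and the 5 profiles nearest to HMGA1. Of these, 1 is not reported here. List genes named for an unadjusted p, for being at 0 or for setting a median, and calls in other settings, were chosen after their values were seen. 3′ UTRs came from GRCh37 with a lifted gencode annotation (1 canonical transcript a gene, Python 3.11.15), joined by symbol, and no coordinates were converted. The procedure was run on simulated data, and how well it recovered changes as small as that of HMGA1 is not given. Alternatives were other scalings, filters and edgeR settings, DESeq2, the replicate number as a block, halved counts, pseudogenes added to parents, and each library left out.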

Additional observations from a re-analysis of the deposited data

How the results depend on the processing

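The count of members called higher was 1 as reported and 0 with DESeq2 size factors, with upper-quartile factors and with pseudogenes added to their parents; with single libraries left out it was 0 to 1 (0 without siControl replicate 1). The count called lower was 0 in every setting run. HMGA1 stayed positive in all 15 alternatives, a sign that leaving out 1 library could hardly have turned. With all libraries kept, its adjusted p ran from 5.6e-06 (edgeR, replicate block) to 0.0546 (edgeR, upper-quartile factors). With the replicate number as a replicate block, HMGA1 was the 1 member called (log2 fold change 0.442, adjusted p 5.6e-06 in edgeR), while calls over all genes rose from 41 higher and 14 lower to 485 and 167. Deviations of same-numbered libraries correlated at 0.03 over 14255 genes. This is 1 comparison and cannot show whether same-numbered libraries were prepared together, which the labels do not say.

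HMGN4, at 0, turned to -0.003 with DESeq2 size factors, -0.03 with upper-quartile factors, -0.036 with library size alone, -0.004 with no filter, -0.011 at a mean count of at least 50, -0.001 with the legacy setting off and -0.006 with halved counts. With single libraries left out, log2 fold changes ran from -0.077 to 0.072 for HMGB1, -0.244 to 0.068 for HMGB2, -0.166 to 0.019 for HMGB3, -0.155 to 0.005 for HMGN2, -0.005 to 0.247 for HMGN3 and -0.087 to 0.098 for HMGN4, and the log2 ratio of the summed CPM of the 10 genes from -0.005 to 0.113 (0.055 with all libraries). The causes were not tested. HMGN1 (0.068 to 0.194) and HMGN5 (0.129 to 0.279) stayed above 0 throughout. Members lower in both siLOC730101 libraries numbered 0 as reported, 1 with DESeq2 or upper-quartile factors (HMGN2) and 2 with library size alone (HMGB3, HMGN2). HMGA1 held place 2 by CPM per kb over all libraries, place 4 in siControl alone, place 3 with pseudogenes added, place 4 without division by length and place 5 with canonical lengths, which were chosen after seeing the data.

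Calls over all genes were 41 higher and 14 lower as reported, 38 and 19 with upper-quartile factors, 58 and 35 with library size alone, 324 and 113 with no filter, 137 and 49 at a mean count of at least 50, 233 and 64 with DESeq2, 87 and 24 with the legacy setting off, 113 and 35 with halved counts, and 923 and 272 without siLOC730101 replicate 1. No scaling moved the median of all genes by more than 0.1.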
